A study of Mus musculus with 60 samples.

Results

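Chromatin modifier genes encode the enzymes and subunits that write, read and remove chemical marks on histones and DNA, or that move nucleosomes. They were chosen by symbol, as the panel genes whose names begin with Kdm, Kmt, Hdac, Dnmt, Setd, Suv, Suz, Ezh, Eed, Smarc, Brd, Kat2, Mbd, Sirt, Tet, Ncor or Arid, together with Ep300, Crebbp, Dot1l, Bmi1, Sin3a, Ash2l, Wdr5, Jarid2 and Hat1. This gave 58 of the 770 genes of the nanoString nCounter Mouse Neuroinflammation Panel, after Kdm5d, a further match, was left out. The rule used symbols and no measured value, though it was set with earlier results of these data known. The panel counts colour barcoded probes hybridized to each transcript. The samples were hippocampus (HPC), hypothalamus (HYP) and brain stem (BS) of the same 20 female Balb/C mice aged 13 weeks, in 4 groups of 5 mice. Tumor mice carried 67NR cells, a single non-metastatic mammary carcinoma line derived from a spontaneous Balb/cfC3H tumor, injected into inguinal mammary glands on both sides. Vehicle mice received DMEM alone. Tissue was taken 25 days later at mid-dark (ZT19, 19 h after lights on) or mid-light (ZT7). All mice lived under a light:dark cycle and were perfused before the brain was taken.

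Acetyl groups on histone tails, added by acetyltransferases such as the paralogs Ep300 and Crebbp and removed by histone deacetylases, accompany open chromatin, and bromodomain proteins bind them. Methyl groups have a position-dependent role: those placed on histone H3 by the Kmt2 and Setd1 enzymes mark active promoters, whereas those placed by Suv39h1 and Suv39h2 mark heterochromatin and those placed by Ezh1 or Ezh2 within Polycomb complexes mark silenced genes. In the brain these enzymes act in neuronal maturation and glial differentiation, and several, among them Ncor1, Sirt1 and Crebbp, bind to or modify proteins of the circadian clock.

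Values were present for 56 of the 60 listed samples: 20 of HPC, 17 of HYP and 19 of BS. Not analysed here were the BS of mouse 8 and the HYP of mice 10, 12 and 32, which left 3 vehicle HYP samples at mid-dark, 4 vehicle HYP samples at mid-light and 4 vehicle BS samples at mid-dark. As a check of the region labels, Tbr1, a factor of pallial neurons, ran from 7.63 to 8.94 in HPC against 2.87 to 5.98 elsewhere. Dlx1, a factor of ventral forebrain interneurons, had its lowest mean in BS. By limma's adjusted p, 6 of 6 pallial markers were higher in HPC than in HYP and 5 of 6 than in BS. Between HYP and BS the pallial markers were mixed, with 2 higher and 4 lower in HYP. Ttr, the choroid plexus transcript, ranged from 5.36 to 14.71 among HPC samples and from 6.49 to 13.77 among BS samples, and from 4.33 to 5.34 in HYP. The absorbance ratio taken here as the RNA purity ratio was under 1.7 in 4 BS samples, all from tumor mice. Its lowest value was 1.34 in tumor BS at mid-dark and 1.51 in tumor BS at mid-light. A second absorbance ratio in the labels was as low as 0.44 in tumor HYP at mid-light and 1.14 in tumor HYP at mid-dark. All values below are log2 expression values after quantile normalization by the authors. A log2 value depends on the gene's own probe, so levels were compared between samples, and ratios of paralogs only as changes between regions.

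The values of the chromatin genes ran from 2.87 to 12.04, and 0 of them equalled the lowest value on the panel, -0.372. Raw counts were not used, so signal over background could not be assessed for Kdm3b, Dnmt3b and Kdm4d. Kdm3b, a demethylase of histone H3, and Dnmt3b, a de novo DNA methyltransferase, had the lowest deposited values, with means of 3.94 and 4.35, and they also had the largest residual standard deviations within groups, 0.337 and 0.415. Over all 58 genes this SD ran from 0.0581 for Brd2 to 0.415, with a median of 0.127 against a median of 0.177 over the whole panel. Differences between regions took up a median of 59.6% of each gene's sum of squares, against 55% over the panel, and ran from 1.58% for Dnmt3b and 2.1% for Kdm1b to 94% for Suv39h1 and 95.3% for Ncor1.

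The first comparison asked how the chromatin genes differ between regions. On the deposited values, levels were in general lowest in BS. The mean over samples was highest in HYP for 29 of the 58 genes, in HPC for 23 and in BS for 6, and it was lowest in BS for 37, in HPC for 14 and in HYP for 7. These orders were not counted over the whole panel. By limma with the mouse as a random block, 43 genes were higher in HYP than in BS and 6 lower (adjusted p under 0.05), with 36.1% of all panel genes higher and 30.4% lower. Between HPC and BS, 35 were higher in HPC and 10 lower, beside 34.9% and 41.7% of the panel. Between HPC and HYP, 20 were higher in HPC and 29 lower, beside 30.3% and 41.4% of the panel. The median log2 difference of the 58 genes was 0.232 for HYP minus BS, 0.136 for HPC minus BS and -0.108 for HPC minus HYP, against 0.0217, -0.03 and -0.0522 over all genes.

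**Figure D1:**
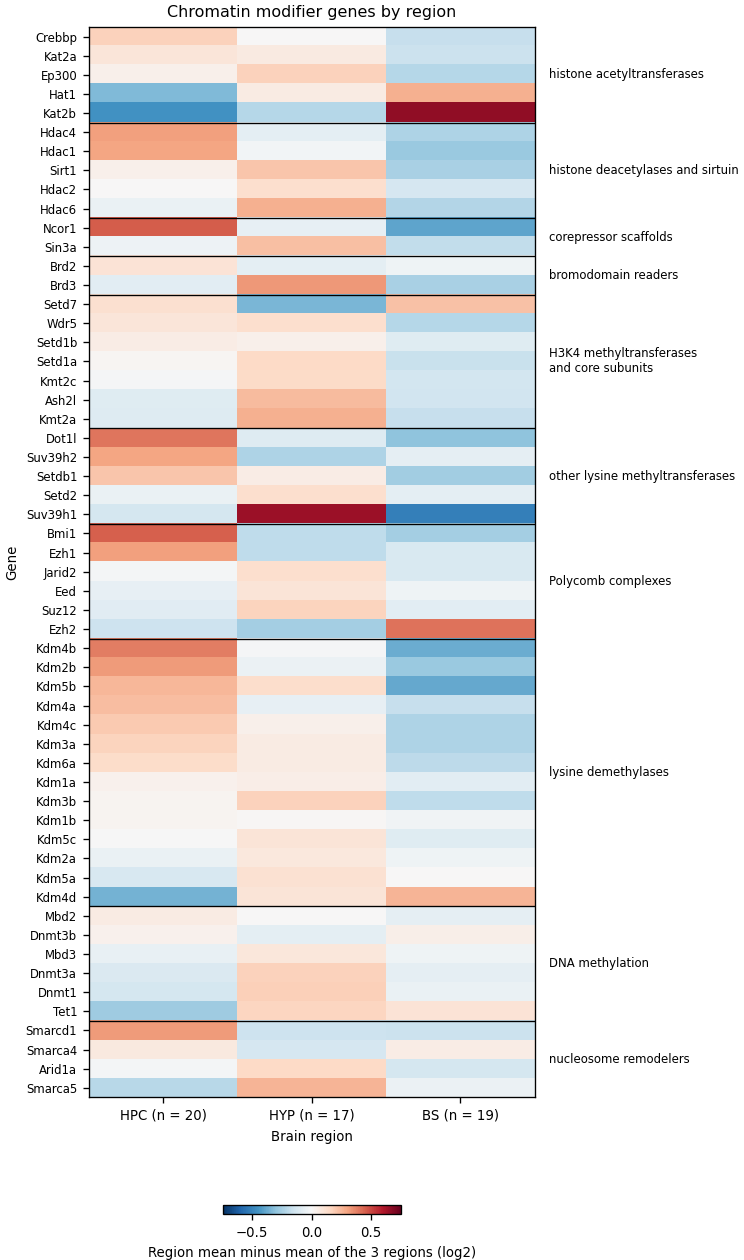
Mean log2 level of 56 of the 58 chromatin modifier genes in HPC (n = 20), HYP (n = 17) and BS (n = 19), as its difference from the mean of the 3 regions; red is higher and blue lower, and genes are grouped by role. The BS column is mostly blue, with red cells for Kat2b, Hat1, Ezh2, Setd7 and Kdm4d, and the darkest cells are Suv39h1 in HYP and Kat2b in BS.

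The split depended on the scale, and the 13 reference genes of the panel themselves differed by 0.134 between HYP and BS and by -0.108 between HPC and HYP. Centred on these genes, the median of all genes became -0.111 for HYP minus BS, -0.0559 for HPC minus BS and 0.0549 for HPC minus HYP. The chromatin genes then split into 28 higher and 11 lower for HYP against BS, beside 23.2% and 43.5% of the panel. For HPC against BS they split into 31 and 11, beside 33.4% and 43.2%, and for HPC against HYP into 26 and 18, beside 38.8% and 29.5%. Of the genes called on the deposited scale, 34 of 49, 41 of 45 and 38 of 49 were called in the same direction after centring. Eed, Kdm2a, Kdm4a, Kdm5a, Mbd2, Mbd3 and Setd1b changed sign for HYP minus BS and Kdm5c for HPC minus HYP, and 0 of these were called in the other direction. The group counts and levels given below are on the deposited scale. Some regional differences of single member genes that are given below with a value and called on that scale were lost after centring. They were those of Ep300, Eed and Jarid2 for HPC minus HYP and that of Kdm3b for HYP minus BS. The other regional differences so given were called in the same direction. Calls for dark against light that were lost under the centring are given with those genes.

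The regions also differed in their cell types, and in bulk samples fewer cells of a type cannot be told apart from less RNA per cell. The summed level of 9 measured neuron markers was 15.8 to 16.1 in HPC, 15.0 to 15.2 in HYP and 14.7 to 15.0 in BS (log2). Single neuron markers were mixed by adjusted p. For HPC minus HYP 8 were higher and 1 lower, for HPC minus BS 7 and 2, and for HYP minus BS 6 and 3. The summed level of 10 oligodendrocyte markers was 14.6 to 15.9, 15.5 to 16.2 and 16.5 to 16.7 in the same order of regions. That of 7 astrocyte markers was 14.6 to 14.9, 15.2 to 15.4 and 15.2 to 15.6. The summed level of 8 microglia markers was 12.5 to 12.8 in HPC, 12.2 to 12.5 in HYP and 11.9 to 12.4 in BS, and all 8 were higher in HPC than in either other region by adjusted p. That of 8 endothelial markers was 10.7 to 11.1, 10.6 to 11.2 and 10.8 to 11.3, with 6 of 8 lower in HPC than in BS. Of these markers 0 were at the lowest value of the table in any sample. Their part in the regional differences was not tested.

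Among the histone methyltransferases, the paralogs Suv39h1 and Suv39h2, which both methylate histone H3 to form heterochromatin, had different regional orders. Suv39h1 ran from 9.81 to 10.32 in HYP (median 10.04), from 9.02 to 9.53 in HPC (median 9.29) and from 8.71 to 9.21 in BS (median 8.89), so every HYP sample lay above every sample of the other regions. It was 1.15 higher in HYP than in BS (SE 0.035, adjusted p = 3.04e-31), a 2.22-fold difference and higher in 16 of 16 mice with both regions. The difference was -0.77 for HPC minus HYP (SE 0.034, adjusted p = 2.55e-25), negative in 17 of 17 mice. Suv39h2 instead ran from 7.27 to 7.89 in HPC (median 7.63), from 6.86 to 7.42 in HYP (median 7.12) and from 7.01 to 7.50 in BS (median 7.24). It was 0.53 higher in HPC than in HYP (SE 0.045, adjusted p = 7.32e-15), higher in 17 of 17 mice although the ranges overlapped. The log2 ratio of Suv39h1 over Suv39h2 within a sample was 1.31 ± 0.197 higher in HYP than in BS (SD, n = 16 mice), and changed by -1.29 ± 0.21 for HPC minus HYP (SD, n = 17 mice), in the same direction in every mouse. It changed by 0.0145 ± 0.225 for HPC minus BS (SD, n = 19 mice), positive in 8 mice and negative in 11. Dot1l, the methyltransferase of the histone H3 core, ran from 7.03 to 7.96 in HPC, 6.63 to 7.31 in HYP and 6.47 to 7.20 in BS, and was 0.70 higher in HPC than in BS (SE 0.063, adjusted p = 2.78e-14). Setdb1, a repressive methyltransferase, was 0.46 higher in HPC than in BS (SE 0.038, adjusted p = 2.3e-15), in 19 of 19 mice. Setd2, which methylates histone H3 along transcribed genes, was highest in HYP, at -0.18 for HPC minus HYP (SE 0.027, adjusted p = 8.29e-08), negative in 17 of 17 mice, and 0.20 for HYP minus BS (SE 0.027, adjusted p = 8.48e-09), with 0.02 for HPC minus BS (SE 0.026, adjusted p = 0.398).

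Promoter sequence is shown for this pair, for Hdac4, which had the largest difference between dark and light over the 3 regions among the 58 genes, and for Kat2b, the gene with the largest contrast between HPC and BS. RefSeq promoter windows on GRCm38.p6 were matched by symbol for 48 of the 58 genes, 12 of which had more than 1 window, giving 66 windows. The 250 bases before each start were searched on both strands for CACGTG (an E-box, bound by clock factors), TGACGTCA (the full cyclic AMP response element) and its shorter form TGACG, which also lies within the full element and reads CGTCA on the other strand. CACGTG was in 6 of the 66 windows (9.09%), against 6.02% of 32851 windows of all genes, and in 0 of the 4 printed here. TGACGTCA was in 1 (1.52%), that of Suv39h2, against 1.55% of all windows. TGACG was in 19 windows (28.8%) of 16 genes, against 17.8% of all windows. The windows printed are the first listed for each gene, read 5′ to 3′ on the gene's strand, with TGACG and CGTCA in capitals. A match describes letters and not a bound site.
Suv39h1 (chrX:8074761-8075010, minus strand): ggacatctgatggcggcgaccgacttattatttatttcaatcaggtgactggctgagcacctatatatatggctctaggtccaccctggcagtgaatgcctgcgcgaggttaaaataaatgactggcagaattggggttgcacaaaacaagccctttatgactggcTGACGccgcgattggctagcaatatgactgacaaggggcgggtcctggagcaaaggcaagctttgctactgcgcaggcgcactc
Suv39h2 (chr2:3474987-3475236, minus strand): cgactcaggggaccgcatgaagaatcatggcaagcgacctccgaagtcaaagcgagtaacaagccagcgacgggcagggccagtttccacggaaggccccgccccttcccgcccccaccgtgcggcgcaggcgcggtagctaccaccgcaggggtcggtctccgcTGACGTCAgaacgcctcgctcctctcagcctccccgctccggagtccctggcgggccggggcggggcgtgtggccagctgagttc
Hdac4 (chr1:92180342-92180591, minus strand): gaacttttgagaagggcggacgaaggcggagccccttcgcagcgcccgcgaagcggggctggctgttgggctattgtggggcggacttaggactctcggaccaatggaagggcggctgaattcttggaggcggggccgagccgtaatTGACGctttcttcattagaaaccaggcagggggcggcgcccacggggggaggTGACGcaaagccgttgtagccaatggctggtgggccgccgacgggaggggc
Kat2b (chr17:53566721-53566970, plus strand): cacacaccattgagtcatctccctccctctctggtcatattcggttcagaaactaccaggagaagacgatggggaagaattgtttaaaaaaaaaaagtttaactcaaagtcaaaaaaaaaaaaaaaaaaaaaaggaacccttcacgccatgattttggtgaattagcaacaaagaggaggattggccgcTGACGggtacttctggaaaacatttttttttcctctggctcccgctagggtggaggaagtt
The Suv39h1 window held 1 match, which begins 84 bases before the start, and the Suv39h2 window held the full element at 85 bases. The Hdac4 window held matches at 103 and 51 bases, and the Kat2b window held 1 at 61 bases. Suv39h1 and Kat2b each had 2 windows, and the one not printed held no match. GC content was 51.6% in the Suv39h1 window, 69.6% in that of Suv39h2, 65.2% in that of Hdac4 and 40.8% in that of Kat2b.

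Of the 5 histone acetyltransferases, Kat2b and Hat1 were highest in BS and the other 3 lowest there. Kat2b, a coactivator acetyltransferase also called PCAF, ran from 9.72 to 10.45 in BS (median 10.17), from 9.08 to 9.64 in HYP (median 9.27) and from 8.68 to 9.52 in HPC (median 8.98). Its BS samples all lay above those of the other regions, with a log2 difference of -1.12 for HPC minus BS (SE 0.052, adjusted p = 8.84e-25), a 2.17-fold difference seen in 19 of 19 mice, and of -0.87 for HYP minus BS (SE 0.055, adjusted p = 4.14e-19). Hat1, which acetylates newly made histones, followed the order BS (10.13 to 10.44), HYP (9.95 to 10.22) and HPC (9.45 to 9.83). The HPC samples of Hat1 did not overlap with the others, and the difference was -0.60 for HPC minus BS (SE 0.029, adjusted p = 3.62e-24), -0.39 for HPC minus HYP (SE 0.030, adjusted p = 1.93e-16) and -0.20 for HYP minus BS (SE 0.031, adjusted p = 1.23e-07). Ep300 and Crebbp were both lowest in BS, where Ep300 ran from 10.27 to 10.48 against 10.61 to 10.89 in HYP, without overlap. They differed from each other in where they were highest, since HPC minus HYP was 0.17 for Crebbp (SE 0.034, adjusted p = 1.55e-05) and -0.13 for Ep300 (SE 0.025, adjusted p = 1.11e-05). Within mice the log2 ratio of Ep300 over Crebbp changed by -0.302 ± 0.0813 for HPC minus HYP (SD, n = 17 mice), negative in 17 of 17. Kat2a, the paralog of Kat2b, was 0.25 higher in HPC than in BS (SE 0.039, adjusted p = 1.14e-07).

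The 5 measured deacetylases take acetyl groups off histones and other proteins. On the deposited scale all 5 were higher in HPC than in BS (34.9% of the panel) and higher in HYP than in BS (36.1%). After centring, Hdac4 lost its call for HYP minus BS, where 23.2% of the panel were then higher in HYP. Hdac1 ran from 8.73 to 9.38 in HPC, from 8.53 to 9.01 in HYP and from 8.33 to 8.83 in BS, and was 0.58 higher in HPC than in BS (SE 0.039, adjusted p = 1.87e-18), in 19 of 19 mice. Its partner in the same complexes, Hdac2, differed by 0.13 (SE 0.029, adjusted p = 7.09e-05), so the log2 ratio of Hdac1 over Hdac2 was 0.443 ± 0.134 higher in HPC than in BS (SD, n = 19 mice). Hdac6, a mainly cytoplasmic tubulin deacetylase, was highest in HYP (9.07 to 9.60) without overlap with BS (8.65 to 8.91), at 0.49 (SE 0.040, adjusted p = 3.89e-15). Sirt1, an NAD-dependent deacetylase, was 0.45 higher in HYP than in BS (SE 0.048, adjusted p = 1.74e-11), in 16 of 16 mice. Hdac4 was 0.38 higher in HPC than in HYP (SE 0.040, adjusted p = 1.2e-11).

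The corepressor scaffold Ncor1, which brings Hdac3 to nuclear receptors, had the largest share of its variation between regions. It ran from 11.16 to 11.40 in HPC (median 11.28), from 10.63 to 10.95 in HYP (median 10.77) and from 10.31 to 10.65 in BS (median 10.41). All HPC samples lay above all others. Ncor1 was 0.85 higher in HPC than in BS (SE 0.025, adjusted p = 1.19e-32), a 1.8-fold difference, 0.51 higher in HPC than in HYP (SE 0.027, adjusted p = 1.51e-22) and 0.34 higher in HYP than in BS (SE 0.027, adjusted p = 9.53e-16). Sin3a, a scaffold for Hdac1 and Hdac2, was highest in HYP (9.78 to 10.12) and did not overlap with BS (9.36 to 9.74).

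**Figure D2:**
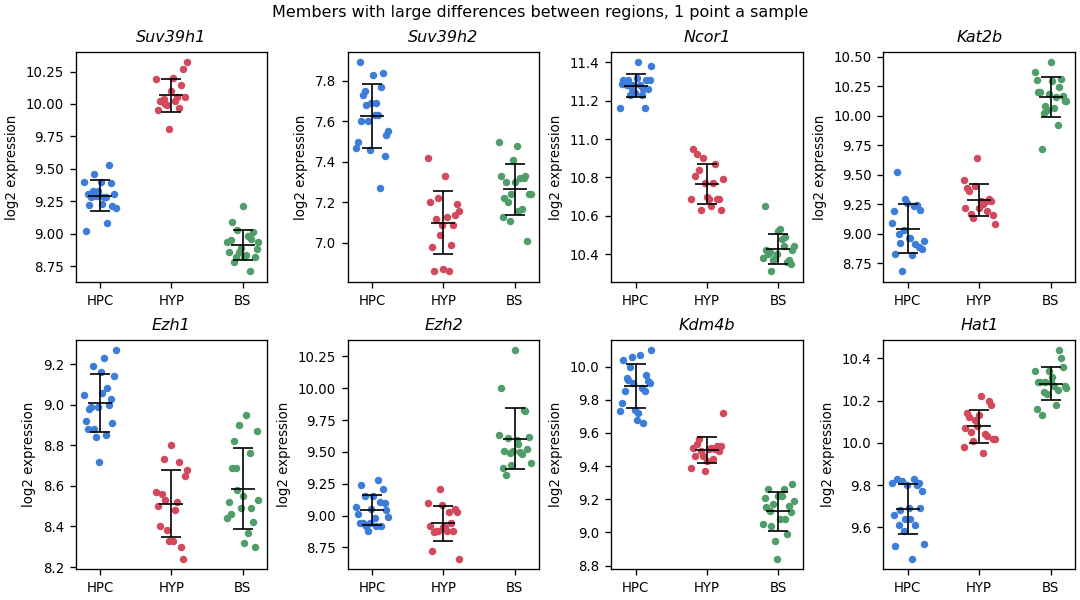
Log2 expression of 8 chromatin modifier genes in every sample of HPC (n = 20), HYP (n = 17) and BS (n = 19); points are samples, and bars give the mean and SD. Suv39h1 in HYP, Ncor1 in HPC and Kat2b, Ezh2 and Hat1 show regions set apart, with Ezh2 in BS reaching 10.30.

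In the Polycomb group, the paired catalytic subunits Ezh1 and Ezh2 again diverged. Ezh2, the main form in dividing cells, ran from 9.32 to 10.30 in BS (median 9.52), from 8.88 to 9.28 in HPC (median 9.03) and from 8.66 to 9.21 in HYP (median 8.91). Its BS samples lay above all others, with -0.67 for HYP minus BS (SE 0.056, adjusted p = 1.08e-14) and -0.56 for HPC minus BS (SE 0.053, adjusted p = 1.97e-13). Ezh1, the form of non-dividing cells, ran from 8.72 to 9.27 in HPC, from 8.24 to 8.80 in HYP and from 8.30 to 8.95 in BS, and was 0.51 higher in HPC than in HYP (SE 0.049, adjusted p = 4.94e-13). The log2 ratio of Ezh1 over Ezh2 was 0.984 ± 0.339 higher in HPC than in BS (SD, n = 19 mice), positive in 19 of 19. Bmi1, a subunit of the ubiquitin ligase complex PRC1, was 9.97 to 10.38 in HPC against 9.38 to 9.71 in HYP and 9.28 to 9.82 in BS, without overlap. It was 0.71 higher in HPC than in BS (SE 0.037, adjusted p = 1.3e-22) and 0.64 higher than in HYP (SE 0.039, adjusted p = 6.43e-20), while HYP and BS differed by 0.07 (SE 0.040, adjusted p = 0.108). The noncatalytic subunits Eed and Suz12 and the accessory protein Jarid2 were all highest in HYP, with HPC minus HYP at -0.25 for Suz12, -0.16 for Eed and -0.13 for Jarid2.

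The 14 lysine demethylases were the largest group, and on the deposited scale 12 of them were higher in HYP than in BS (36.1% of the panel) and 9 higher in HPC than in BS (34.9%). After centring on the reference genes, 6 of the 12 and 8 of the 9 were still called higher, and Kdm2a, Kdm4a and Kdm5a changed sign for HYP minus BS without being called. Kdm4b ran from 9.66 to 10.10 in HPC (median 9.90), from 9.37 to 9.72 in HYP (median 9.50) and from 8.84 to 9.29 in BS (median 9.15). It was 0.75 higher in HPC than in BS (SE 0.034, adjusted p = 3.77e-25), in 19 of 19 mice. Kdm5b, which removes methyl groups from active promoters, ran from 9.35 to 9.71 in BS against 9.85 to 10.24 in HYP and 9.96 to 10.29 in HPC. Its BS samples lay below all others, by 0.63 against HPC (SE 0.032, adjusted p = 2.29e-23) and 0.52 against HYP (SE 0.034, adjusted p = 1.54e-18). Kdm2b, part of a variant PRC1, was 0.60 higher in HPC than in BS (SE 0.037, adjusted p = 5.35e-20), whereas its paralog Kdm2a differed by -0.02 (SE 0.033, adjusted p = 0.667). Kdm4d, an intronless relative of Kdm4a and Kdm4b, went the other way, from 4.61 to 5.67 in HPC, 5.06 to 6.01 in HYP and 5.39 to 5.99 in BS. The difference was -0.60 for HPC minus BS (SE 0.064, adjusted p = 9.95e-12) and -0.46 for HPC minus HYP (SE 0.067, adjusted p = 4.72e-08). The log2 ratio of Kdm4b over Kdm4d was 1.33 ± 0.269 higher in HPC than in BS (SD, n = 19 mice), the largest change among the 20 paralog pairs compared. Kdm1b, an H3 demethylase known from oocytes, was called in none of the 3 comparisons (adjusted p from 0.351 to 0.821). Kdm3b overlapped between all regions, with 3.41 to 4.56 in HPC, 3.62 to 4.70 in HYP and 2.87 to 4.45 in BS, and was 0.36 higher in HYP than in BS (SE 0.106, adjusted p = 0.00222).

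Regional differences also held in the other groups. Of the bromodomain proteins, Brd3 was highest in HYP (9.42 to 9.92) and did not overlap with BS (8.88 to 9.29), at 0.57 (SE 0.037, adjusted p = 5.75e-19), with -0.41 for HPC minus HYP (SE 0.036, adjusted p = 3.12e-14). Brd2 was highest in HPC (11.37 to 11.59), and the log2 ratio of Brd2 over Brd3 was 0.586 ± 0.17 higher in HPC than in HYP (SD, n = 17 mice). Of the H3K4 methyltransferases and their core subunits, 6 of 7 were higher in HYP than in BS on the deposited scale (36.1% of the panel) and 5 after centring, when Setd1b changed sign. Among those 5 were Ash2l at 0.37 (SE 0.033, adjusted p = 3.89e-14) and Kmt2a at 0.44 (SE 0.055, adjusted p = 9.02e-10). Setd7, which also methylates nonhistone proteins, was the exception with 9.30 to 10.13 in HYP and 9.95 to 10.36 in BS, at -0.55 (SE 0.052, adjusted p = 3.68e-13). Of the DNA methylation genes, Tet1, which oxidizes methylcytosine, was lowest in HPC, at 8.69 to 9.02 against 9.07 to 9.68 in HYP, with -0.42 (SE 0.051, adjusted p = 3.65e-10) against HYP and -0.37 (SE 0.049, adjusted p = 2.65e-09) against BS. The maintenance methyltransferase Dnmt1 had -0.31 for HPC minus HYP (SE 0.041, adjusted p = 2.33e-09). Dnmt3b was called in no comparison of regions (adjusted p from 0.218 to 0.896). The alternative motor subunits of nucleosome remodelers also differed, since Smarca5 was lowest in HPC (11.19 to 11.57 against 11.61 to 12.04 in HYP, -0.45, SE 0.029, adjusted p = 3.69e-19) and Smarca4 lowest in HYP (-0.18 for HYP minus BS, SE 0.030, adjusted p = 6.74e-07). Their log2 ratio, Smarca4 over Smarca5, was 0.656 ± 0.212 higher in HPC than in HYP (SD, n = 17 mice), in 17 of 17.

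**Figure D3:**
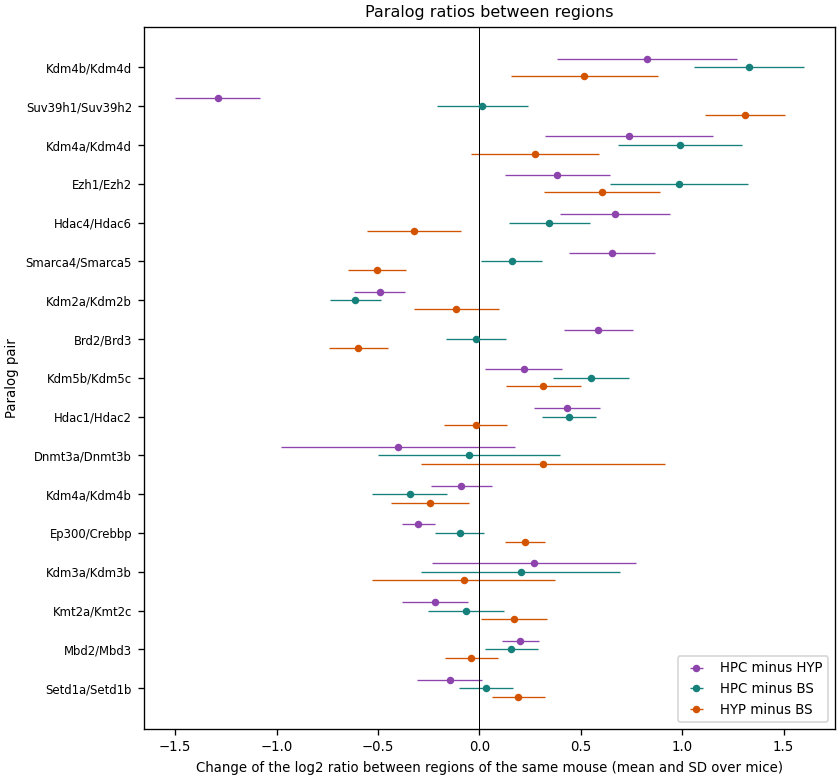
Change of the log2 ratio of 17 of the 20 paralog pairs between regions of the same mouse (first region minus second); points are means over 16 to 19 mice and lines the SD. Suv39h1/Suv39h2 lies at -1.29 for HPC minus HYP and 1.31 for HYP minus BS, and Kdm4b/Kdm4d at 1.33 for HPC minus BS.

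Chromatin genes outside the symbol rule gave a similar mixture. Of 5 that the panel holds, Ehmt2, an H3K9 methyltransferase, was 0.66 higher in HYP than in BS (SE 0.032, adjusted p = 1.47e-23) and 0.54 higher in HPC than in BS (SE 0.030, adjusted p = 6.79e-22). Hells, a remodeler needed for DNA methylation, was highest in BS, at -0.91 for HPC minus BS (SE 0.056, adjusted p = 6.24e-20). The histone chaperone Hira was 0.26 higher in HYP than in BS (SE 0.028, adjusted p = 3.53e-11). In the comparisons of dark with light and of tumor with vehicle over the 3 regions, 0 of the 5 had an adjusted p under 0.05 by limma, and at an unadjusted p under 0.05 there were 1 and 0.

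The second comparison asked whether levels at mid-dark differed from those at mid-light. Over the 3 regions together, 8 of the 58 genes had an adjusted p under 0.05, beside 13.5% of all panel genes, and 17 had an unadjusted p under 0.05, beside 25.6% of the panel. At mid-dark Hdac4, Crebbp, Brd3, Smarca4, Eed and Dnmt1 were higher and Ezh1 and Brd2 lower. All differences were small, the largest called being 0.20 for Hdac4, and the median over the 58 genes was 0.0381 against 0.00699 over all genes. Within a region, 2 of the 58 genes were called in HPC (5.59% of the panel), 1 in HYP (2.34%) and 1 in BS (4.94%). At an unadjusted p under 0.05 there were 15 in HPC (18.7% of the panel), 8 in HYP (13.2%) and 7 in BS (15.9%). Of the 15 in HPC, 14 were higher at mid-dark, beside 81 of the 144 such genes of the panel.

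Hdac4, a class II deacetylase that shuttles between cytoplasm and nucleus with neuronal activity, had the clearest difference, and it lay mainly in HPC. In vehicle HPC it was 8.75, 8.81, 8.88, 8.95 and 8.99 at mid-light and 9.10, 9.22, 9.24, 9.42 and 9.42 at mid-dark. In tumor HPC it was 8.71, 8.76, 8.88, 8.94 and 8.94 at mid-light and 8.92, 9.13, 9.16, 9.20 and 9.30 at mid-dark. The vehicle groups did not overlap, and in the tumor groups 1 mid-dark sample, that of mouse 11, lay within the mid-light range. The HPC difference was 0.35 (SE 0.056, adjusted p = 0.000865), 1.28-fold, with 0.41 in vehicle mice and 0.30 in tumor mice. The difference was 0.15 in HYP (SE 0.059, adjusted p = 0.292) and 0.10 in BS (adjusted p = 0.589), and over the 3 regions 0.20 (SE 0.039, adjusted p = 0.000171). Tested as a difference between regions, HPC exceeded BS by 0.25 (unadjusted p = 0.00191, adjusted p = 0.266) and HYP by 0.20 (adjusted p = 0.409), which did not pass. Of all 58 genes, 0 passed by limma's adjusted p in the 3 such comparisons of HPC with HYP, HPC with BS and HYP with BS (0.39%, 0.13% and 0% of the panel), with 6, 3 and 2 at an unadjusted p under 0.05 (8.83%, 5.84% and 3.51% of the panel).

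**Figure D4:**
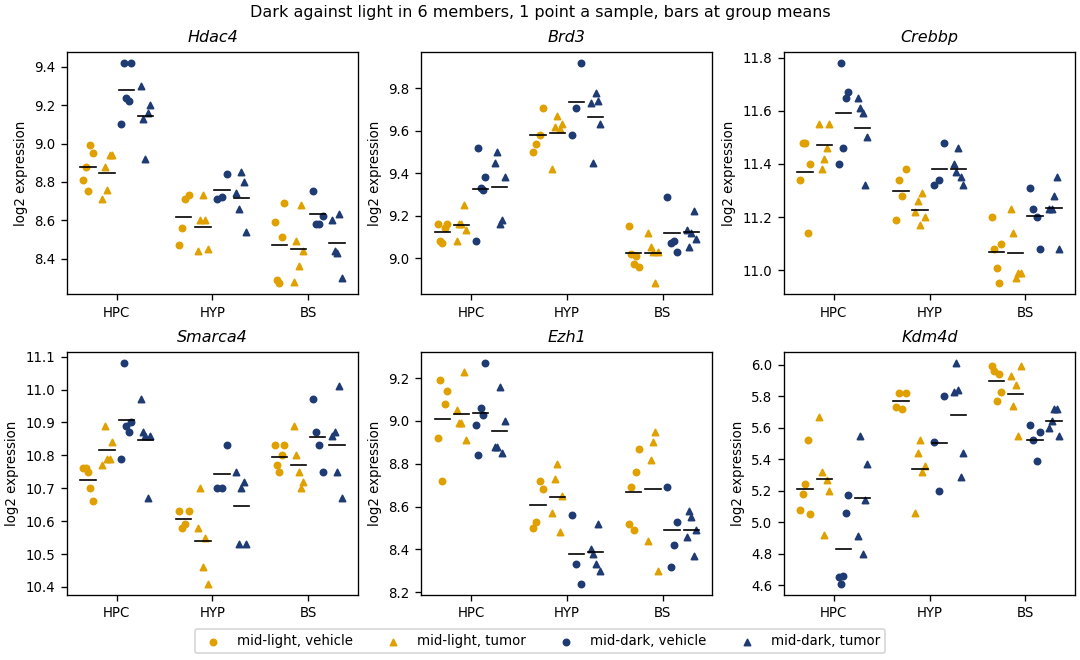
Log2 expression of 6 chromatin modifier genes in every sample by region; yellow points are mid-light and blue mid-dark, circles vehicle and triangles tumor, and bars are group means (3 to 5 mice each). Hdac4 and Brd3 in HPC have mid-dark points above most mid-light points, and Ezh1 in HYP and Kdm4d in BS have mid-dark points below most mid-light points.

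Brd3 and Crebbp, a reader and a writer of histone acetylation, were also higher at mid-dark. Brd3 in HPC was 9.07, 9.08, 9.14, 9.16 and 9.16 in vehicle mice at mid-light and 9.08, 9.32, 9.33, 9.38 and 9.52 at mid-dark. In tumor mice it was 9.08, 9.13, 9.16, 9.16 and 9.25 at mid-light and 9.16, 9.18, 9.38, 9.45 and 9.50 at mid-dark. The lowest mid-dark sample of vehicle mice and the lowest 2 of tumor mice lay within the mid-light range of their own treatment. The HPC difference was 0.19 (SE 0.054, adjusted p = 0.0429) and the one over the 3 regions 0.14 (SE 0.035, adjusted p = 0.00472). The HPC call was lost without any 1 of 16 of the 20 mice (adjusted p from 0.0526 to 0.0846, kept without mice 4, 11, 13 or 19), and it was lost when samples were centred on the reference genes (adjusted p = 0.29). Crebbp differed by a like amount in each region, 0.14 in HPC, 0.12 in HYP and 0.15 in BS, none of them passing alone (adjusted p = 0.2, 0.199 and 0.109, though BS passed without mouse 1 at 0.0435), and by 0.14 over the 3 regions (SE 0.033, adjusted p = 0.00262). Single values of Crebbp are given for tumor HYP only, and its other groups are not described here. In tumor HYP Crebbp was 11.17, 11.20, 11.22, 11.26 and 11.29 at mid-light and 11.32, 11.35, 11.37, 11.40 and 11.46 at mid-dark, without overlap.

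Smarca4, the ATPase of the BAF remodeling complex, was 0.10 higher at mid-dark over the 3 regions (SE 0.028, adjusted p = 0.0168), and the difference became 0.0736 (adjusted p = 0.19) when samples were centred on the reference genes. Eed at 0.10 (SE 0.033, adjusted p = 0.045) and Dnmt1 at 0.11 (SE 0.039, adjusted p = 0.0464) lay close to the threshold. Eed lost its call without any 1 of 12 mice (adjusted p up to 0.189, kept without mice 1, 2, 3, 4, 8, 10, 19 or 32), as did Dnmt1 (up to 0.145, kept without mice 1, 2, 7, 8, 10, 19, 23 or 32). Under the centring their adjusted p was 0.187 and 0.0616. Some oligodendrocyte markers were lower at mid-dark. In HPC, 4 of 10 oligodendrocyte markers were lower at mid-dark by adjusted p, with a summed level of 14.6 to 15.7 at mid-dark and 15.3 to 15.9 at mid-light, and 1 of 8 endothelial markers was higher, with 10.7 to 11.1 and 10.7 to 11.0, and 0 of these 18 markers were at the lowest value. In BS, 4 of 9 tested oligodendrocyte markers were lower, at 16.5 to 16.7 and 16.6 to 16.7, and in HYP 1 of 10, at 15.5 to 16.2 and 15.6 to 16.2. The part of oligodendrocytes in the differences was tested only as a covariate. With the oligodendrocyte level as a covariate, an alternative chosen after the data were seen, the HPC difference of Hdac4 was 0.349 (adjusted p = 0.00988) and that of Brd3 0.137 (adjusted p = 0.328).

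Ezh1 and Brd2 were lower at mid-dark. Ezh1 in HYP was 8.50, 8.53, 8.68 and 8.72 in vehicle mice at mid-light and 8.24, 8.33 and 8.56 at mid-dark. In tumor mice it was 8.48, 8.57, 8.65, 8.73 and 8.80 at mid-light and 8.30, 8.33, 8.38, 8.40 and 8.52 at mid-dark. In vehicle and in tumor mice alike, 1 mid-dark sample lay within the mid-light range. The HYP difference was -0.24 (SE 0.061, adjusted p = 0.0464), lost without any 1 of 13 mice (adjusted p from 0.0532 to 0.14, kept without mice 1, 4, 13 or 19 or those with no HYP value) and under the centring on reference genes (0.103), with -0.18 in BS (adjusted p = 0.304) and -0.03 in HPC (adjusted p = 0.894). Over the 3 regions it was -0.15 (SE 0.047, adjusted p = 0.0257), lost without any 1 of mice 8, 9, 12, 22, 28 or 30 (adjusted p from 0.0504 to 0.0772). Brd2 in HYP was 11.29 to 11.38 at mid-light in vehicle and tumor mice and 11.14 to 11.28 at mid-dark, which did not overlap, yet the difference of -0.10 (SE 0.031, unadjusted p = 0.00471) had an adjusted p of 0.113, which passed only with ordinary in place of moderated p values (0.00813). Over the 3 regions Brd2 differed by -0.06 (SE 0.019, adjusted p = 0.0428), lost without any 1 of 13 mice (adjusted p up to 0.0826, kept without mice 5, 8, 9, 11, 22, 29 or 30).

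Kdm4d was the gene called in BS. In vehicle BS it was 5.77, 5.83, 5.94, 5.96 and 5.99 at mid-light and 5.39, 5.52, 5.57 and 5.62 at mid-dark, without overlap. In tumor BS it was 5.55, 5.74, 5.87, 5.93 and 5.99 at mid-light and 5.55, 5.60, 5.64, 5.72 and 5.72 at mid-dark, where the mid-light sample of mouse 13 lay at the lower end of the mid-dark samples. The difference was -0.27 (SE 0.057, adjusted p = 0.00935), with -0.37 in vehicle and -0.17 in tumor mice. The call was lost with the oligodendrocyte level as a covariate (-0.238, adjusted p = 0.125) and in 1 fit over the 3 regions with the mouse as a block, where the adjusted p was 0.102 with the same sign. In HPC the Kdm4d difference was -0.25 (adjusted p = 0.226). In HYP it was 0.04 (adjusted p = 0.964), where vehicle mice gave -0.27 and tumor mice 0.34. Suv39h1 in BS, next in order of p, was 8.71 to 8.94 at mid-light and 8.82 to 9.21 at mid-dark, a difference of 0.16 (SE 0.046, adjusted p = 0.0539) that passed without mouse 1 or mouse 12 (adjusted p of 0.0435 and 0.0301). Setdb1 in HPC differed by 0.16 (SE 0.055, adjusted p = 0.107), which passed without mouse 19 (adjusted p = 0.0149), and Kat2b in HYP by 0.17 (SE 0.057, adjusted p = 0.173).

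The third comparison asked whether the chromatin genes differed between tumor and vehicle mice. No difference passed. By limma, 0 of the 58 genes had an adjusted p under 0.05 over the 3 regions, in HPC, in HYP or in BS, where 2.34%, 0.52%, 0.26% and 1.04% of the panel did. At an unadjusted p under 0.05 there were 2, 2, 1 and 1, beside 9.48%, 6.37%, 7.14% and 6.5% of the panel. The median tumor minus vehicle difference of the 58 genes was 0.000819 over the 3 regions, and single genes ran from -0.121 to 0.15. Setd7 had the smallest p over the 3 regions, at -0.12 (SE 0.049, adjusted p = 0.292), which passed without mouse 5 or without mouse 28 (adjusted p from 0.0431 to 0.0451), followed by Kdm3a, a demethylase of histone H3, at 0.07 (SE 0.036, adjusted p = 0.47) and Ncor1 at -0.05 (SE 0.026, adjusted p = 0.521).

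**Figure D5:**
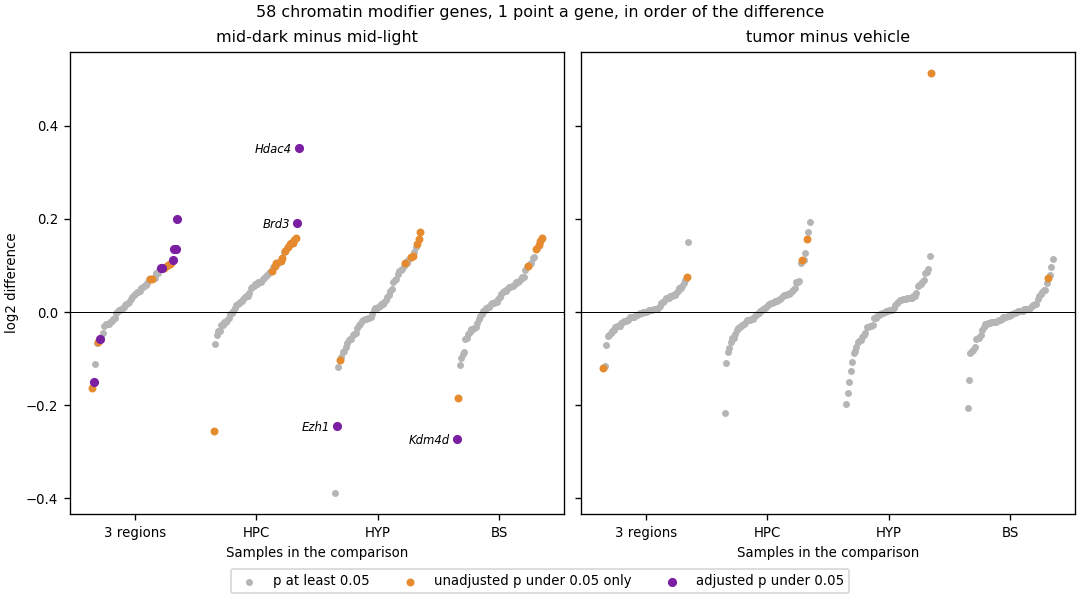
Log2 differences of the 58 chromatin modifier genes between mid-dark and mid-light (left) and between tumor and vehicle (right), over the 3 regions and within each; each point is a gene, in order of its difference. Purple points have an adjusted p under 0.05 (8, 2, 1 and 1 on the left, 0 on the right) and orange points only an unadjusted p under 0.05.

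Averaged over both times, the largest tumor difference in size within a region was that of Dnmt3b in HYP. It was 3.73, 4.08, 4.38 and 4.40 in vehicle mice and 4.31, 4.31, 4.75, 4.95 and 5.02 in tumor mice at mid-light. At mid-dark it was 2.92, 3.83 and 4.55 in vehicle and 3.78, 3.98, 4.32, 4.50 and 4.79 in tumor mice. The groups overlapped at both times, and the difference was 0.51 (SE 0.214, adjusted p = 0.529). In HPC, Suv39h1 differed by 0.11 (SE 0.049, adjusted p = 0.717), Kdm4a by 0.16 (SE 0.075, adjusted p = 0.777) and Kdm6a by -0.08 (SE 0.037, adjusted p = 0.777). In HYP, Setd7 differed by -0.20 (SE 0.096, adjusted p = 0.703) and Hdac1 by 0.12 (SE 0.064, adjusted p = 0.729). In BS, where the samples of low RNA purity all came from tumor mice, Hdac6 differed by 0.07 (SE 0.034, adjusted p = 0.744), Dnmt1 by 0.12 (SE 0.056, adjusted p = 0.759) and Wdr5, a core subunit of the H3K4 methyltransferases, by -0.08 (SE 0.058, adjusted p = 0.91).

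The last comparison asked whether the tumor difference depended on the time of day. By limma 0 of the 58 genes had an adjusted p under 0.05 in HPC, HYP or BS, as had 0% of the panel in each. At an unadjusted p under 0.05 there were 4, 1 and 2, beside 6.11%, 2.6% and 3.64% of the panel. In HPC, the interaction was -0.32 (SE 0.134, adjusted p = 0.662) for Kmt2c, an H3K4 methyltransferase, which in vehicle mice was 9.45, 9.59, 9.60, 9.73 and 9.73 at mid-light and 9.73, 9.85, 9.87, 10.05 and 10.09 at mid-dark. In tumor mice Kmt2c was 9.53, 9.86, 9.86, 9.99 and 9.99 at mid-light and 9.65, 9.73, 9.82, 9.96 and 9.96 at mid-dark, so that its vehicle groups met at 1 value and its tumor groups overlapped. Dot1l in HPC followed at -0.43 (SE 0.186, adjusted p = 0.662), and Kdm3b, with the smallest p, had -0.74 (SE 0.242, adjusted p = 0.509). In BS, Setdb1 had -0.50 (SE 0.137, adjusted p = 0.634). At mid-light it was 7.41, 7.42, 7.46, 7.70 and 7.79 in vehicle mice and 7.61, 7.61, 7.75, 7.82 and 7.85 in tumor mice. At mid-dark it was 7.73, 7.79, 7.92 and 7.96 in vehicle mice and 7.24, 7.47, 7.61, 7.63 and 7.67 in tumor mice, which did not overlap. The RNA purity ratio of these mid-dark BS samples ran from 1.95 to 2.01 in vehicle mice and from 1.34 to 1.99 in tumor mice. Sin3a in BS had 0.22 (SE 0.092, adjusted p = 0.988) and Kdm4d 0.20 (SE 0.113, adjusted p = 0.999). In HYP, Kdm4d had 0.61 (SE 0.216, adjusted p = 1), Setd1b -0.19 (SE 0.108, adjusted p = 1) and Kat2b -0.20 (SE 0.114, adjusted p = 1). In that region Kdm4d at mid-light was 5.06, 5.32, 5.36, 5.44 and 5.52 in tumor mice, below the vehicle values of 5.72, 5.73, 5.82 and 5.82, and at mid-dark the groups overlapped.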

How the data were processed

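RNA of 3 brain regions per mouse was assayed on nCounter, and the authors deposited log2 values of 770 genes, made in nSolver by background subtraction, positive control and codeset normalization, then quantile normalized in Partek. A nameless row (1) of the table was left out. Quantile normalization gives all samples the same distribution of values. These values carry no counts, so depth is unknown, and precision rests on how many mice were sampled. Groups followed the labels, with the mouse as replicate. Models with a mean per group were fitted on all genes in R 4.3.3 with limma 3.58.1, and p values were adjusted over the panel within each comparison by the Benjamini-Hochberg method. Comparisons of regions, and those over the 3 regions, took the mouse as a random block, since same-numbered samples come from the same animal (consensus correlation 0.136). Within a region no block was used. A gene without any variation within HPC or within BS (1 in each) was not tested there. Paralog ratios were computed per mouse, without a test. Promoter windows were searched in Python 3.11.15 with numpy 2.4.6 and pandas 2.3.3, plots were drawn with matplotlib 3.10.9, and the models were checked on simulated data.

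The members, role lists, paralog pairs, marker lists and alternatives were chosen with earlier results of these data known. Full statistics were given for the 5 genes with the highest and the 5 with the lowest difference called in each comparison of regions, for the called genes elsewhere or, where fewer than 3 were called, the 3 with the smallest p, for the 5 paralog pairs with the largest changes, and for genes with a mean log2 value under 5. Other genes named, the comparison of dark and light differences between regions, and the Ttr and oligodendrocyte covariates were chosen after the data were seen. The values of some genes are not reported here.

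Alternatives were ordinary p values, a mean log2 of at least 5, centring on the 13 reference genes, quantile normalization within a region, other treatments of the mouse, the RNA purity ratio, Ttr or oligodendrocyte level as a covariate, vehicle injected mice only, an adjusted p under 0.01, and leaving out each mouse.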

Additional observations from a re-analysis of the deposited data

Results flagged for a closer look

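Of 92 groups of 4 or 5 samples tested for genes named within a region, 4 held a sample whose gap to its nearest neighbour was large for the range of its group, and chance gives about 1 in 20. Kdm6a in HPC of vehicle mice at mid-light was 8.86 in mouse 6, above its nearest neighbour at 8.73. Setd7 in HYP of tumor mice at mid-light was 9.94 in mouse 5, above 9.48. Hdac1 in HYP of tumor mice at mid-dark was 8.56 in mouse 19, below 8.86. Kmt2c in HPC of tumor mice at mid-light was 9.53 in mouse 1, below 9.86.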

How the results depend on the processing

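None of the differences that the naming rule chose changed direction under the alternatives run. Other differences, given with the regional comparisons, changed sign under centring on the reference genes, as did the uncalled differences of Bmi1 for HYP minus BS and Setd2 for HPC minus BS. Of the chosen differences recomputed on all mice or on vehicle mice, 541 kept their side of the threshold, 16 lost their call and 4 gained one. Of those recomputed with 1 mouse left out, 1282 kept it, 72 lost it and 6 gained one, all of these for dark against light or, for Setd7, tumor against vehicle. In vehicle mice alone, the only alternative run for them, the 60 changes of paralog ratios moved by less than their SD. Some that were smaller than their SD changed sign. These were Brd2/Brd3 and Dnmt3a/Dnmt3b for HPC minus BS, and Kdm3a/Kdm3b and Mbd2/Mbd3 for HYP minus BS. Centred on the reference genes, 18 members were lower in HPC than in HYP, 28 were higher and 11 lower in HYP than in BS, and 1 and 0 members were called for dark against light in HPC and HYP. For dark against light within regions, ordinary p values gave 2 in HYP and 2 in BS, a mean log2 of at least 5 gave 2 in BS, and 1 fit over all 3 regions with the replicate block gave 0 in HYP and 0 in BS. The RNA purity covariate gave 1 in HPC, 0 in HYP and 2 in BS, the Ttr covariate 1 in HPC, and the oligodendrocyte covariate 1 in HPC, 0 in HYP and 0 in BS, the last 2 being alternatives chosen after the data were seen. The cause was not tested. Without the replicate block, 12 members were called for dark against light over the 3 regions, against 8 with it, and it changed the calls by region little (35 and 9 for HPC minus BS, 20 and 29 for HPC minus HYP, 42 and 6 for HYP minus BS). In vehicle mice alone the numbers higher and lower were 31 and 9, 18 and 24, and 35 and 7. Among all alternatives, with each mouse left out as well, the share of the panel called was counted only for the regions under centring.

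With each mouse left out, members higher and lower numbered 33 to 36 and 9 to 11 for HPC minus BS, 20 to 21 and 27 to 30 for HPC minus HYP, and 42 to 43 and 6 to 7 for HYP minus BS. For dark against light, 1 to 3 were called in BS (3 without mouse 1), 1 to 3 in HPC (3 without mouse 19), 0 to 1 in HYP and 4 to 10 over the 3 regions (4 without mouse 12, 10 without mouse 1). For tumor against vehicle, 0 to 1 were called over the 3 regions (1 without mouse 5 or 28), and 0 to 0 in each region and for each interaction. Signal over background could not be assessed for Kdm3b, Dnmt3b and Kdm4d, since raw counts were not used.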
